A study of Mus musculus with 8 samples.

Results

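CT16, the early subjective night, was sampled in 2 of the 8 polyadenylated RNA libraries of this series, which were made from C57/BL6 mice and cover the suprachiasmatic nucleus (SCN). The mice had been kept for 3 weeks on a cycle of equal light and dark periods and were then moved to constant darkness, and each library pooled equal RNA from 3 mice. The labels used here state neither age nor sex. Libraries were taken every 6 h over 2 days, so each circadian time (CT, hours counted from subjective dawn) was met in a first and a second cycle. The CT16 libraries carry titles of 40 h and 64 h. They were set against 6 others, namely CT4 (28 h and 52 h), CT10 (34 h and 58 h) and CT22 (22 h and 46 h), and no group differs from another in strain or treatment. The hours in the titles were reduced to a 1-day clock to form these groups, and the protocol names CT18 as the first collection although the earliest title is CT22. Genes were described by whether both CT16 libraries stood above, or both below, the other 6, and by a test across all genes.

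The SCN is the pacemaker of the mammalian brain. In its cells CLOCK and BMAL1 (the product of Arntl) switch on genes such as Per1, Per2, Nr1d1 and Dbp through E-box sequences during the subjective day, and PER and CRY proteins later hold that activity down. Among the outputs of this loop are the neuropeptide gene Avp and genes that tune G-protein signalling. Chaperones of the heat shock family fold proteins in the cytosol and are switched on by the factor HSF1 through heat shock elements, while the chaperones of the endoplasmic reticulum (ER) are switched on through ER stress elements.

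At CT16, RNA of 8 genes rose and RNA of 9 genes fell. Of the genes that rose, 5 encode chaperones or their helpers, and those that fell include clock genes, Avp and Rgs16. Promoter sequences of 16 of these 17 genes were found in RefSeq (GRCm38.p6), as windows of 300 bases that run from 250 before the start of transcription to 50 after it. Windows from 5 genes are shown, with 1 motif each in capitals, and most genes of each group lacked these motifs. A heat shock element of 3 units was in 2 of 8 genes that rose, and the ER stress element in 1 of 8. The E-box was in 2 of the 8 genes that fell and have a window. Of all genes with a window, 0.662%, 0.137% and 8.09% held these motifs. A heat shock element of 3 units, in which TTC and GAA alternate with 2 bases between them, was found in the windows of Chordc1 and Hsph1 and in 0.603% of all 32851 windows. In Chordc1 it occurs 3 times in an overlapping run whose first bases lie at positions -4, 2 and 7, counted from the first transcribed base as 1, and in the Hsph1 window shown it lies at position 16. The ER stress element, CCAAT and CCACG with 9 bases between them, lies at position -65 of Hspa5 and is in 0.119% of all windows. The E-box CACGTG lies at position -139 of Avp and -166 of Per1 and is in 7.15% of all windows, that of Hsph1 among them. The shorter GAANNTTC, contained in each of these 3-unit matches, was also in the window of Hspa1b and in 7.86% of all windows. The D-box TTATGTAA and the cAMP response element TGACGTCA were in the window of none of the 16 genes, and in 0.938% and 1.79% of all windows. Both strands were searched, and a match of letters is a description of the sequence.
Chordc1 (chr9:18292017-18292316, + strand): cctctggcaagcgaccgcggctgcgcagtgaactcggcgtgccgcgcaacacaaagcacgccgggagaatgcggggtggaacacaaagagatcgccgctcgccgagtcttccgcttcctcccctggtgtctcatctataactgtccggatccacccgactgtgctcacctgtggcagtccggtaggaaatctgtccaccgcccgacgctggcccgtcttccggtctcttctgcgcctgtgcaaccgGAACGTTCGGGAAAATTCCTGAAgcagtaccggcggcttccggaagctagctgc
Hsph1 (chr5:149636266-149636565, - strand): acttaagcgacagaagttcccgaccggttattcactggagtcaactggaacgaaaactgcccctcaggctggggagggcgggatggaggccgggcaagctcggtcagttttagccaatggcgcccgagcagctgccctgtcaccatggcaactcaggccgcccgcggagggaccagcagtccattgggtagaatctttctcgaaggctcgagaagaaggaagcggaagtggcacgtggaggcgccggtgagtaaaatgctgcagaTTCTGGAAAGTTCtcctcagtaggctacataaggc
Hspa5 (chr2:34771840-34772139, + strand): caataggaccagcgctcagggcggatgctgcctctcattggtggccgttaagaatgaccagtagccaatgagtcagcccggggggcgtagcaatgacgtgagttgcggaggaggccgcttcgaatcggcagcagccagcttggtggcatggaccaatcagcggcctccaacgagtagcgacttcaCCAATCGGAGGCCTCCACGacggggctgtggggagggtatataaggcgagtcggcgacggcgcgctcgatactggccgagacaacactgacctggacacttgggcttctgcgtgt
Avp (chr2:130582539-130582838, - strand): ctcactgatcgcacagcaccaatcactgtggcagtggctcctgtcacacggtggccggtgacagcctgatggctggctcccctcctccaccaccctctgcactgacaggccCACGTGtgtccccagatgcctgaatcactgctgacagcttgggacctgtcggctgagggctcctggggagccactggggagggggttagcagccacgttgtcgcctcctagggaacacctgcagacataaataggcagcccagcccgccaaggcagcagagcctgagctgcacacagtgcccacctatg
Per1 (chr11:69098699-69098998, + strand): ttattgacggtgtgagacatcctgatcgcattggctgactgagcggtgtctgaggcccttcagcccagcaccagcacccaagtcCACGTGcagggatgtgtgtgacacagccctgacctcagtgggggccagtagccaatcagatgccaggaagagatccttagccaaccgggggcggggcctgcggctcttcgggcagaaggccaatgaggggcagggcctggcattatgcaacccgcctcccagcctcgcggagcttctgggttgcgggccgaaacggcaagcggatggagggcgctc

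Each library held 11123610 to 11131890 reads assigned to the sense strand of genes and 4196931 to 4199146 reads in introns, totals so alike that depth appears to have been equalised before deposit. A set of 10 genes that mark the SCN was detected in every library, with at least 10 reads for Prok2 in its lowest library and 2109 for Vip in its lowest. Their levels were uneven. Six3 had 862 and 608 reads at CT16 against 716 to 1114 elsewhere, and Six6 had 520 and 343 against 462 to 950. The second CT16 library was the lowest for both, while both CT16 libraries lay within the others for Lhx1 and Vip. Whether the share of SCN tissue differed between libraries was not tested. The group means at the 4 times were fitted with edgeR's quasi-likelihood test, and the contrast was CT16 minus the mean of CT4, CT10 and CT22. After Benjamini-Hochberg adjustment over 15217 genes, 17 genes (0.112%) passed 0.05, of which 8 (0.0526%) were higher and 9 (0.0591%) lower at CT16. At an unadjusted p under 0.05 there were 823 genes (5.41%). DESeq2 called 27 genes, and the fit that pools the other 6 libraries as 1 group, so that rhythm among them counts as spread, called 0 with edgeR and had 600 at an unadjusted p under 0.05. The p-values measure spread between pooled libraries taken 1 day apart, not between mice, and the count fell to 2 without CT16 replicate 2, to 3 without CT16 replicate 1 or CT10 replicate 2, to 7 without CT4 replicate 1 and to 10 without CT4 replicate 2, where replicates 1 and 2 are the first and second cycle.

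Chaperones of the cytosol and their partners led the genes that rose. Chordc1 (ENSMUSG00000001774, mm9 chr9:18096692-18118566), a partner of the chaperone HSP90, had 174 and 189 CPM (read counts scaled to library size) at CT16, against 98.2 and 123 CPM at CT4, 86.6 and 73.5 CPM at CT10, and 143 and 138 CPM at CT22. Both CT16 libraries were above the other 6, with CT22 nearest and CT10 lowest. The log2 difference was 0.75 ± 0.10 (SE; adjusted p = 0.0113, n = 2 against 6), and the call was lost without CT10 replicate 2, CT16 replicate 1 or CT16 replicate 2 (adjusted p up to 0.279). Hsph1 (ENSMUSG00000029657, mm9 chr5:150416820-150438956), which encodes the large heat shock protein HSP110, had 595 and 625 CPM at CT16, against 458 and 406 CPM at CT4, 329 and 270 CPM at CT10, and 556 and 517 CPM at CT22. The CT22 libraries lay just under those of CT16, and the CT10 libraries were the lowest. The log2 difference was 0.57 ± 0.10 (adjusted p = 0.0376). Ahsa2 (ENSMUSG00000020288, mm9 chr11:23387614-23398055), related to the activator of the HSP90 ATPase, had 104 and 110 CPM at CT16, against 59.4 and 75.4 CPM at CT4, 57.8 and 52.9 CPM at CT10, and 82.9 and 79.3 CPM at CT22. Its order of times was that of Chordc1, and its log2 difference was 0.67 ± 0.10 (adjusted p = 0.0210). Ahsa2 shares bases with Usp34 in the files' coordinates, so reads could be split between them.

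Hspa1b (ENSMUSG00000090877, mm9 chr17:35093101-35096463), the stress-inducible HSP70, was the lowest in level of the genes that rose and the one with the largest difference among the 17. It had 7.21 and 17.0 CPM at CT16, against 1.26 and 1.89 CPM at CT4, 1.69 and 1.35 CPM at CT10, and 5.91 and 2.45 CPM at CT22. Both CT16 libraries were above the rest, but they differed from each other, and the first of them was close to the first CT22 library. The log2 difference was 2.48 ± 0.35 (adjusted p = 0.0118), and 1.74 without CT16 replicate 2 (adjusted p = 0.996). The call was also lost without CT10 replicate 2 or CT4 replicate 1 (adjusted p = 0.0771 and 0.0513). The near-identical Hspa1a had 3.83 and 8.50 CPM at CT16, against 1.62 and 1.44 CPM at CT4, 3.02 and 3.23 CPM at CT10, and 4.92 and 3.45 CPM at CT22 (log2 difference 1.18 ± 0.34, adjusted p = 0.581). How reads were divided between these copies is not given in the sources used here, so the value of either is uncertain.

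The other 4 genes that rose work in the ER, the nucleus and transport. Hspa5 (ENSMUSG00000026864, mm9 chr2:34627473-34632149) encodes BiP, the main HSP70 of the ER. It had 893 and 838 CPM at CT16, against 624 and 623 CPM at CT4, 605 and 555 CPM at CT10, and 667 and 638 CPM at CT22. The other 6 libraries lay close together, below both of CT16, and the log2 difference was 0.48 ± 0.09 (adjusted p = 0.0448). P4ha1 (ENSMUSG00000019916, mm9 chr10:58786026-58836282), a collagen prolyl hydroxylase of the ER, had 77.1 and 90.1 CPM at CT16, against 43.5 to 61.9 CPM in the other 6 libraries (log2 difference 0.63 ± 0.11, adjusted p = 0.0460). Sfpq (ENSMUSG00000028820, mm9 chr4:126698479-126714265) encodes a splicing factor of paraspeckles that also joins PER complexes. It had 233 and 219 CPM at CT16, against 121 and 133 CPM at CT4, 147 and 121 CPM at CT10, and 167 and 172 CPM at CT22. Here CT4 and CT10 were close in level and CT22 stood between them and CT16 (log2 difference 0.67 ± 0.09, adjusted p = 0.0118), and the gene overlaps Gm12940 in the files' coordinates. Slc5a3 (ENSMUSG00000089774, mm9 chr16:92058552-92088793), the myo-inositol transporter, had 165 and 162 CPM at CT16, against 121 and 123 CPM at CT4, 92.5 and 92.5 CPM at CT10, and 132 and 144 CPM at CT22 (log2 difference 0.49 ± 0.09, adjusted p = 0.0400). Its replicates were close at every time, and it overlaps Mrps6. With 1 library left out at a time, Slc5a3 and Hspa5 passed the threshold in none of the 8 fits (adjusted p 0.0601 to 0.572 and 0.126 to 0.279), and Hsph1 and P4ha1 in 1 each, that without CT10 replicate 1 (up to 0.665 and 0.996). Sfpq and Ahsa2 passed in 4 each and were lost without either CT16 library, CT10 replicate 2 or CT4 replicate 1 (up to 0.200 and 0.572).

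**Figure D1:**
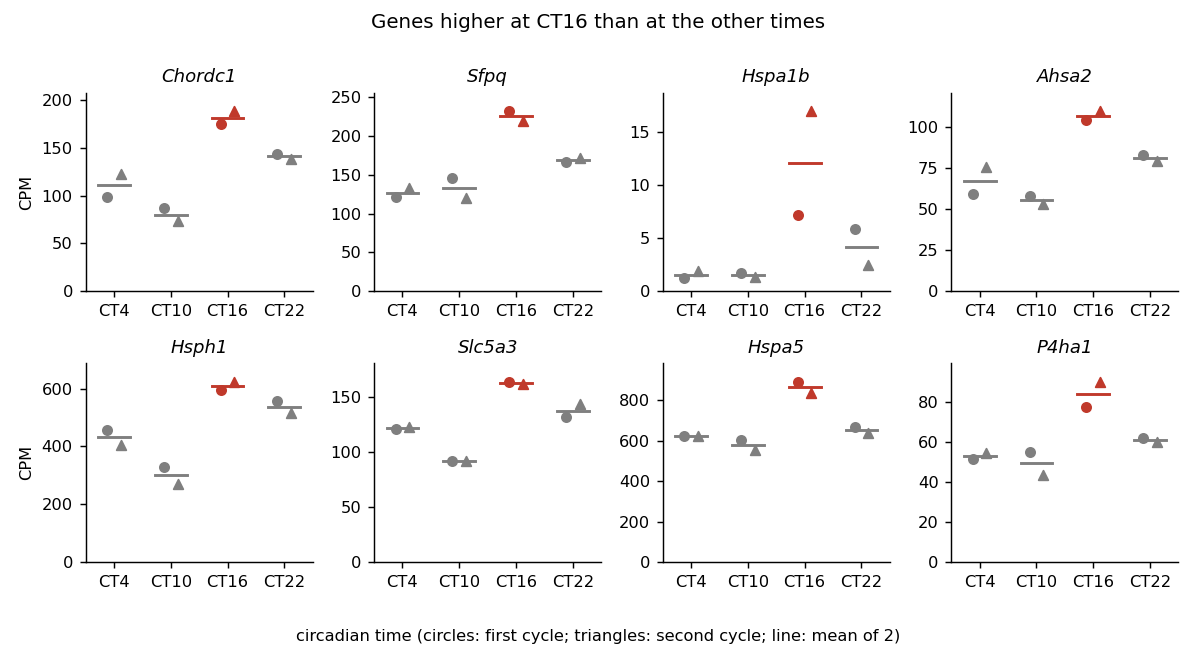
CPM (y axis, linear from 0) of the 8 genes called higher at CT16, by circadian time (x axis); circles are first-cycle libraries, triangles second-cycle libraries, and each line is their mean. The red CT16 points lie above the 6 grey points in every panel, and in Hspa1b the 2 red points, 7.21 and 17.0 CPM, are far apart.

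Nearly all members of the chaperone lists, the called genes included, had a positive difference. These lists, like the other gene lists, were chosen with earlier results of these data known. Their members were measured in the same libraries, so the counts below are descriptions and the members are not replicates. Of 25 cytosolic and mitochondrial heat shock genes tested, 3 were called higher and 0 lower, against 0.0526% and 0.0591% of all genes. A positive difference was found in 24 of the 25, against 7928 of 15217 genes over the whole table. Both CT16 libraries were above the other 6 for 16 of them, against 493 of all genes (3.24%), and 20 had an unadjusted p under 0.05 with a higher level at CT16, against 487 of all genes (3.2%). The median log2 difference of the list was 0.36, while that of all genes tested was 0.01. Against single times the list's median was 0.37 for CT4, 0.46 for CT10 and 0.16 for CT22. The mean of the CT16 libraries was the highest of the 4 times for 23 of the 25 genes, and CT10 was the lowest for 17 and CT4 for 8. Among the members that did not pass, Hspa8, the constitutive HSP70, had 2469 and 2137 CPM at CT16 against 1554 to 2032 CPM elsewhere (log2 difference 0.33 ± 0.10, adjusted p = 0.686). Stip1, which links HSP70 to HSP90, had 291 and 292 CPM against 181 to 255 CPM (0.43 ± 0.09, adjusted p = 0.239, and 0.0253 with DESeq2), and Dnajb1, an HSP40 whose second CT16 library fell within the range of the others, had 117 and 87.2 CPM against 52.4 to 91.6 CPM (0.59 ± 0.12, adjusted p = 0.115). Hsf1, the regulator of these genes, had 35.4 and 42.9 CPM at CT16 against 28.6 to 34.5 CPM elsewhere (0.36 ± 0.13, adjusted p = 0.795). Hspa4, another relative of HSP110, was the member with a negative difference (-0.02 ± 0.09).

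Of 22 genes for folding in the ER, Hspa5 was called higher and 0 were lower, 21 had a positive difference and 9 lay above the range of the other 6 libraries. Of all genes 0.0526% were called higher, 52.1% had a positive difference and 3.24% lay above the range. The list's median log2 difference was 0.18. Sdf2l1, a partner of BiP, had 14.4 and 17.8 CPM at CT16, against 5.75 to 14.3 CPM in the other libraries. The first CT22 library was level with the lower of CT16. The log2 difference of Sdf2l1 was 1.13 ± 0.24 (adjusted p = 0.202, and 0.0491 with DESeq2), and 0.98 to 1.34 with 1 library left out. Creld2, which is secreted under ER stress, had 20.7 and 22.9 CPM at CT16, against 9.72 to 15.6 CPM elsewhere (0.73 ± 0.16, adjusted p = 0.223). Pdia4, a disulfide isomerase, had 96.4 and 106 CPM at CT16, against 65.9 to 80.6 CPM elsewhere (0.49 ± 0.09, adjusted p = 0.113, and 0.0140 with DESeq2). Atf4, a transcription factor of the stress response, was the member with a negative difference (-0.18 ± 0.10). Of 20 ER folding genes with a promoter window, 8 held the ER stress element, against 0.137% of all genes with a window. The 3-unit heat shock element was in 4 of 19 heat shock genes with a window, against 0.662% of all. Whether these motifs bear on the levels at CT16 was not tested. Among 25 splicing and paraspeckle genes, Sfpq was called, 20 had a positive difference and 3 lay above the range (all genes as above), with a median log2 difference of 0.11, and Nono, the partner of SFPQ, averaged 205 ± 14.3 CPM at CT16 and 209 ± 12.8 CPM in the other 6 libraries (SD).

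**Figure D2:**
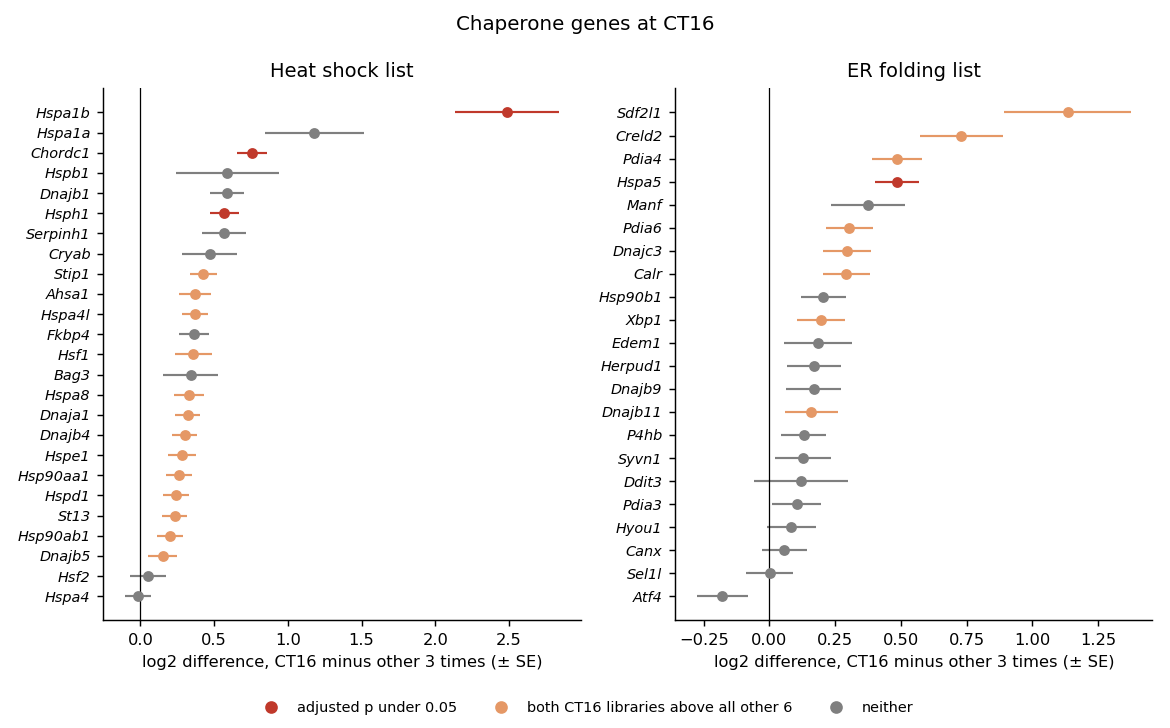
Log2 difference (x axis, CT16 minus the mean of the other 3 times, bars ± SE) of each heat shock gene (left) and ER folding gene (right). Red points passed an adjusted p of 0.05, orange points had both CT16 libraries above all other 6, and all but 1 point in each panel lie to the right of 0.

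Of the genes that fell, Rgs16 had the smallest p. Rgs16 (ENSMUSG00000026475, mm9 chr1:155587463-155592781) encodes a GTPase-activating protein that ends signalling by G proteins and is rich in the SCN. It had 80.3 and 81.9 CPM at CT16, against 268 and 304 CPM at CT4, 137 and 148 CPM at CT10, and 152 and 203 CPM at CT22. All 6 other libraries were well above both of CT16, CT4 the most. The log2 difference was -1.25 ± 0.12 (0.420-fold, adjusted p = 0.000544), and it stayed past the threshold with any 1 library left out (adjusted p up to 0.0289). Rasl11b (ENSMUSG00000049907, mm9 chr5:74591292-74595640), a small GTPase of the Ras family, had 12.7 and 10.1 CPM at CT16, against 53.9 and 64.6 CPM at CT4, 24.4 and 22.7 CPM at CT10, and 20.4 and 21.6 CPM at CT22. CT4 was far above the rest, and CT10 and CT22 were close to each other, between CT4 and CT16 (log2 difference -1.44 ± 0.16, adjusted p = 0.00126, and 0.0908 without CT16 replicate 2). Dusp4 (ENSMUSG00000031530, mm9 chr8:35870264-35883097), a phosphatase that switches off MAP kinases, had 3.92 and 2.95 CPM at CT16, against 17.5 and 24.6 CPM at CT4, 7.82 and 10.9 CPM at CT10, and 8.23 and 5.82 CPM at CT22 (-1.69 ± 0.27, adjusted p = 0.0266). Again CT4 was highest, and CT22 was nearest to CT16. The call was lost without either CT16 library, CT10 replicate 2 or CT4 replicate 2 (adjusted p up to 0.748). In bulk RNA, fewer cells of a type and less RNA per cell cannot be told apart.

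Avp (ENSMUSG00000037727, mm9 chr2:130406333-130408304), which encodes vasopressin, the peptide of many SCN shell neurons, had 12.8 and 22.4 CPM at CT16, against 37.8 and 54.3 CPM at CT4, 51.3 and 52.8 CPM at CT10, and 49.9 and 37.0 CPM at CT22. CT4 overlapped both CT10 and CT22, CT10 was above CT22, and the other 3 times all lay above both CT16 libraries. The log2 difference was -1.42 ± 0.21 (adjusted p = 0.0139), and the call was lost without CT16 replicate 1 or CT10 replicate 2 (adjusted p up to 0.232). Magnocellular neurons near the SCN also make vasopressin, and their other peptide gene, Oxt, had 59.3 and 103 CPM at CT16, against 61.3 to 142 CPM elsewhere (-0.05 ± 0.24, adjusted p = 0.996). Over a list of 21 SCN peptide and receptor genes that also holds Rgs16, Avp and Rgs16 were called lower, against 0.0591% of all genes, and 0 higher. Avp was thus the only peptide or receptor gene called, and the median log2 difference of the list was -0.16. Vip, the peptide of the SCN core, had 238 and 222 CPM at CT16, within the 189 to 375 CPM of the other libraries (-0.16 ± 0.15, adjusted p = 0.971).

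Of 19 core clock genes, 3 were called lower at CT16, against 0.0591% of all genes, and 0 higher. Nr1d1 (ENSMUSG00000020889, mm9 chr11:98629198-98636708) encodes REV-ERB alpha, a repressor of Arntl. It had 49.1 and 45.8 CPM at CT16, against 88.2 and 110 CPM at CT4, 80.1 and 79.8 CPM at CT10, and 62.8 and 71.6 CPM at CT22. CT16 was below the others in both cycles (log2 difference -0.77 ± 0.12, adjusted p = 0.0163), and the gene overlaps Thra in the files' coordinates. Per1 (ENSMUSG00000020893, mm9 chr11:68908711-68923550), a member of the repressor complex, had 41.5 and 42.2 CPM at CT16, against 77.2 and 86.7 CPM at CT4, 74.8 and 97.7 CPM at CT10, and 49.9 and 45.3 CPM at CT22. The libraries fell into a high pair of times, CT4 and CT10, and a low pair in which CT16 was just under CT22 (-0.73 ± 0.12, adjusted p = 0.0376). Dbp (ENSMUSG00000059824, mm9 chr7:52960391-52965574), an activator of D-box genes, had 32.4 and 38.5 CPM at CT16, against 66.5 and 77.1 CPM at CT4, 92.9 and 79.9 CPM at CT10, and 38.8 and 32.0 CPM at CT22. CT16 overlapped CT22, so Dbp was called (-0.77 ± 0.13, adjusted p = 0.0376) without standing outside the range, and it overlaps Sphk2.

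The other 16 clock genes did not pass with edgeR. Per2 had 59.3 and 58.9 CPM at CT16, against 67.9 and 87.4 CPM at CT4, 88.0 and 114 CPM at CT10, and 47.0 and 40.3 CPM at CT22 (-0.24 ± 0.13, adjusted p = 0.929), so its CT16 level in gene reads lay between those of CT10 and CT22. Cry1, the partner repressor, had 49.3 and 43.4 CPM at CT16, against 38.0 to 52.6 CPM elsewhere (0.16 ± 0.11, adjusted p = 0.966), and Arntl averaged 45.4 ± 6.47 CPM at CT16, against 32.6 to 60.7 CPM elsewhere (0.08 ± 0.13, adjusted p = 0.984). Rora, an activator of Arntl, had 94.5 and 83.8 CPM at CT16, against 92.3 to 199 CPM elsewhere, with CT4 highest (-0.68 ± 0.16, adjusted p = 0.291). It passed in only 2 of the 8 other settings that kept all libraries, DESeq2 (adjusted p = 0.00735) being 1 of them. With 1 library left out, its log2 difference ranged from -0.78 to -0.57. Over the list 6 of 19 differences were positive, against 52.1% of all genes, and the median was -0.13.

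The remaining genes that fell are Fabp7, the fatty acid binding protein of astrocytes, and Hmgb3, a chromatin protein. Fabp7 (ENSMUSG00000019874, mm9 chr10:57504667-57508288) had 28.8 and 32.9 CPM at CT16, against 87.3 and 90.2 CPM at CT4, 43.0 and 33.0 CPM at CT10, and 63.6 and 58.9 CPM at CT22. The second CT10 library was level with the higher CT16 one, so here the nearest time was the preceding one (log2 difference -0.94 ± 0.13, adjusted p = 0.0113). Hmgb3 (ENSMUSG00000015217, mm9 chrX:68809077-68813952) had 31.8 and 33.0 CPM at CT16, against 54.5 and 62.3 CPM at CT4, 55.4 and 60.6 CPM at CT10, and 39.5 and 43.8 CPM at CT22 (-0.68 ± 0.12, adjusted p = 0.0400). Its CT22 libraries stood between CT16 and the daytime ones. With 1 library left out at a time, Fabp7 was lost without either CT16 library (adjusted p up to 0.200) and Nr1d1 also without CT10 replicate 2 (up to 0.572). Per1 passed only when either CT10 replicate 1 or CT22 replicate 2 was dropped (up to 0.665 otherwise), Dbp only without either CT22 library (up to 0.292) and Hmgb3 only without CT22 replicate 1 (up to 0.665).

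**Figure D3:**
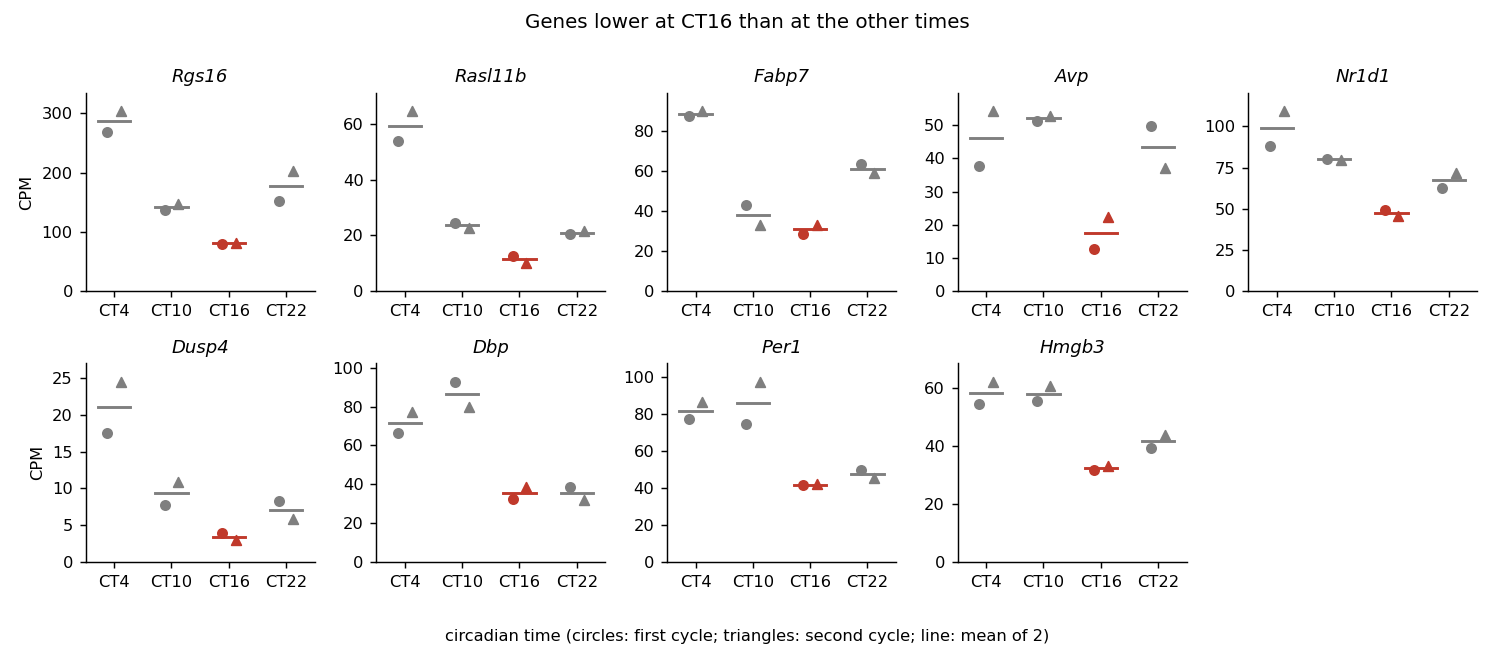
CPM (y axis, linear from 0) of the 9 genes called lower at CT16, by circadian time (x axis); circles are first-cycle libraries, triangles second-cycle libraries, and each line is their mean. The red CT16 points are the lowest in every panel except that of Dbp, where the CT22 points, 38.8 and 32.0 CPM, overlap them.

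Set against each other time in turn, CT16 differed from CT10 in 33 genes (0.217%), of which 20 (0.131%) were higher and 13 (0.0854%) lower at CT16. Against CT4 there were 10 genes (0.0657%), 2 higher (0.0131%) and 8 lower (0.0526%), and against CT22 Rgs16 alone was called (0.00657%), with 543 genes (3.57%) at an unadjusted p under 0.05. Of the 8 genes higher at CT16, all 8 passed against CT10, Sfpq alone passed against CT4 (0.83, adjusted p = 0.0150), and 0 passed against CT22. Chordc1, for example, differed by 1.18 on the log2 scale from CT10 (adjusted p = 0.00315), by 0.72 from CT4 (0.0605) and by 0.36 from CT22 (1). Of the 9 genes lower at CT16, 8 passed against CT4 and 7 against CT10. Rgs16 differed by -1.82 from CT4 (adjusted p = 1.4e-05), by -0.81 from CT10 (0.0309) and by -1.13 from CT22 (0.0118). Rasl11b differed by -2.38 from CT4, -1.05 from CT10 and -0.88 from CT22, and the last did not pass (adjusted p = 0.776). These contrasts share the CT16 libraries, and without any 1 library the counts ranged from 2 to 30 against CT10, from 5 to 33 against CT4 and from 0 to 6 against CT22.

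**Figure D4:**
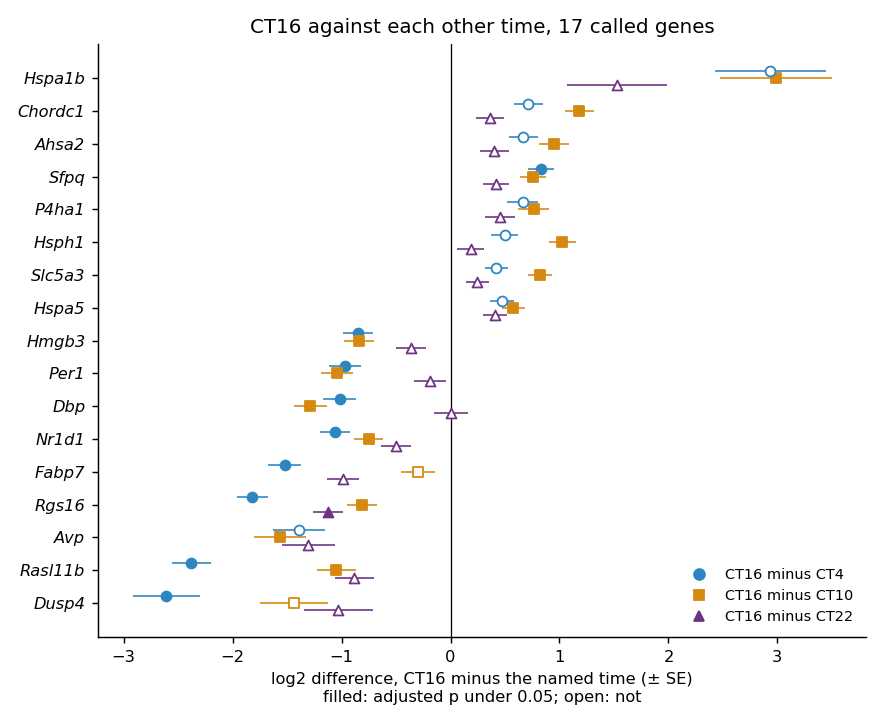
Log2 difference (x axis, CT16 minus CT4, CT10 or CT22, bars ± SE) for the 17 called genes; filled symbols passed an adjusted p of 0.05 and open symbols did not. For 7 of the 8 genes with positive values the CT22 triangle is nearest to 0 and the CT10 square farthest from it; the exception is Sfpq, where CT4 is farthest.

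Within-cycle values had the signs of the fit. In each cycle the CT16 library was compared with the 3 other libraries of that cycle, and the log2 ratio had the same sign as the fitted difference for all 17 genes in both cycles. For the 8 genes that rose it was 0.41 to 1.29 in the first cycle and 0.44 to 3.16 in the second, and for the 9 that fell -1.86 to -0.65 in the first and -2.22 to -0.71 in the second. Both cycles entered the fit that chose these genes. For all of them but Dbp both CT16 libraries lay outside the range of the other 6, so their signs could not have differed. The shared signs are therefore no separate evidence from each cycle. A test of whether the CT16 effect differed between the cycles called 0 of 15217 genes with edgeR and 0 with DESeq2, and 593 genes (3.90%) had an unadjusted p under 0.05. Each cycle holds 1 CT16 library, and this fit pools the other 3 times as does the 2-group fit, which called 0 genes for CT16 itself, so these counts do not show that the cycles were alike.

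Without regard to the test, 493 genes (3.24%) had both CT16 libraries above the other 6 and 461 (3.03%) had both below, shares that describe the table as a whole. Among the genes above, the time with the next highest mean was CT22 for 232, CT10 for 137 and CT4 for 124. Among the genes below, the next lowest was CT22 for 190, CT10 for 147 and CT4 for 124. Beside the called genes and the chaperones above, those with the smallest p above the range included Prex2, an activator of Rac, with 86.9 and 80.5 CPM at CT16 against 48.5 to 76.7 CPM elsewhere (0.50 ± 0.10, adjusted p = 0.116, and 0.0234 with DESeq2). Gabra2, a GABA-A receptor subunit, had 50.5 and 41.8 CPM at CT16 against 24.4 to 39.0 CPM elsewhere (0.53 ± 0.12, adjusted p = 0.291), so its lower CT16 library was close to the highest of the others. Efcab1 and Fsd1l were also above the range (0.51 ± 0.11 and 0.43 ± 0.10, adjusted p = 0.223 and 0.291).

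Below the range, uncalled genes included Cirbp, an RNA-binding protein induced by mild cold. Cirbp had 128 and 124 CPM at CT16, against 174 and 187 CPM at CT4, 181 and 215 CPM at CT10, and 130 and 139 CPM at CT22, so CT16 was just under CT22 (log2 difference -0.42 ± 0.10, adjusted p = 0.291, and 0.0253 with DESeq2). The related Rbm3 had 108 and 110 CPM at CT16 within the 98.7 to 204 CPM of the others (-0.27 ± 0.09, adjusted p = 0.782). Opalin, an oligodendrocyte membrane protein, had 17.0 and 18.8 CPM at CT16 against 20.7 to 50.1 CPM elsewhere (-0.78 ± 0.16, adjusted p = 0.158, and 0.0103 with DESeq2). It does not stand for its cell type. Of 12 oligodendrocyte markers 9 had a positive difference, against 52.1% of all genes, with a median of 0.21. Opalin was the only 1 of them below the range. Thsd4, Angptl2, Lrrc14 and Abl2 were also below the range, with log2 differences of -0.72, -0.97, -0.72 and -0.43 and adjusted p between 0.322 and 0.558.

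The immediate-early genes, which respond to neuronal activity and light, had the lowest median of the pathway lists. Of 23 tested, Dusp4 was called lower and 0 higher, against 0.0591% and 0.0526% of all genes. A positive difference was found in 7, against 52.1% of all genes, 4 lay below the range of the other 6 libraries and 0 above, against 3.03% and 3.24% of all genes, and the median log2 difference was -0.45. Fos had 6.39 and 13.5 CPM at CT16 against 10.6 to 27.2 CPM elsewhere (-0.75 ± 0.27, adjusted p = 0.819), and Egr1 had 15.9 and 18.2 CPM at CT16 against 16.9 to 41.0 CPM elsewhere (-0.64 ± 0.22, adjusted p = 0.766). For both genes the highest library was the first one of CT22, and CT16 overlapped the rest. Dusp1 had 10.8 and 12.3 CPM at CT16 against 14.0 to 19.8 CPM elsewhere (-0.59 ± 0.19, adjusted p = 0.741). In the lists for cholesterol synthesis, glycolysis, the respiratory chain, ion channels, GABA signalling, glucocorticoid-responsive genes, clock modifiers and SCN identity 0 genes were called, and their medians ran from -0.06 to 0.04. At an unadjusted p under 0.05, the SCN identity list had 5 of 17 genes lower and 0 higher. Over all 15217 genes 336 were lower and 487 higher, and each of the other lists named here had at most 3 either way. Of 26 genes tested in the list for cAMP and G-protein signalling, Rasl11b was called lower and 0 higher, against 0.0591% and 0.0526% of all genes. The median of that list was -0.01.

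Intron reads, which come in larger part from RNA not yet spliced, gave fewer calls. Summed per gene, 2 of 13697 genes (0.0146%) passed, both lower at CT16, with 1039 (7.59%) at an unadjusted p under 0.05 and 11 called by DESeq2. Rgs16 introns held 44 and 59 reads at CT16, against 260 and 254 at CT4, 76 and 87 at CT10, and 88 and 170 at CT22 (log2 difference -1.43 ± 0.25, adjusted p = 0.0381). Nr1d1 introns held 93 and 97 reads at CT16, against 244 and 305 at CT4, 156 and 171 at CT10, and 155 and 220 at CT22 (-1.09 ± 0.19, adjusted p = 0.0381). Both genes were at their lowest at CT16 in intron and in gene reads. Their intron calls were lost without CT16 replicate 1 or 2, CT22 replicate 2 or CT4 replicate 2, for Rgs16 also without CT4 replicate 1, and when overlapping introns were resolved in favour of the longest (adjusted p = 0.0607 for both).

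Of the 8 genes that rose, 7 had introns in the test, and the sign of the intron difference was that of the gene in 7 of 7, as it was in 9 of 9 genes that fell. For P4ha1 it was only 0.03 ± 0.27. The genes were chosen by gene reads of the same libraries, and the share of like signs over all genes was not worked out. Of uncalled genes above the range, Pdia4, Sdf2l1, Creld2, Efcab1 and Stip1 had positive intron differences. Those of Fsd1l, Gabra2 and Prex2 were negative (-0.59 ± 0.51, -0.11 ± 0.21 and -2.34 ± 1.07, the last with at most 11 reads). Both CT16 libraries were outside the range of the other 6 in the introns of Chordc1, Sfpq, Ahsa2 and Hsph1 as well as in those of Rgs16 and Nr1d1, while introns above the range numbered 549 (4.01%) and below it 611 (4.46%) in all. Hsph1 introns held 2093 and 2177 reads at CT16, against 1611 and 1343 at CT4, 1363 and 1122 at CT10, and 1977 and 1936 at CT22 (0.49 ± 0.11, adjusted p = 0.132). Their order of times was that of its gene reads. Fabp7 introns held 39 and 38 reads at CT16, against 53 and 59 at CT4, 27 and 14 at CT10, and 75 and 100 at CT22 (-0.26 ± 0.31, adjusted p = 0.899), with CT10 the lowest time. Introns of the uncalled Per2 were below the range, with 103 and 108 reads at CT16 against 112 to 231 elsewhere (-0.61 ± 0.19, adjusted p = 0.381). Over the lists, intron differences were positive for 21 of 22 heat shock genes and 19 of 22 ER folding genes, with medians of 0.27 and 0.37, and for 3 of 19 core clock genes, with a median of -0.43, beside 6647 of 13697 genes and -0.01 over the table.

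The introns with the smallest p outside the calls included those of Mllt6, with 417 and 476 reads at CT16 against 255 to 341 elsewhere (0.65 ± 0.13, adjusted p = 0.132), and of Shank1, a scaffold of synapses, with 1382 and 1592 reads at CT16 against 675 to 1235 elsewhere (0.59 ± 0.14, adjusted p = 0.152). The introns of Lrrc23 and 1700007K13Rik were also above the range (0.84 ± 0.19 and 0.86 ± 0.18, adjusted p = 0.132 for both). Below it, Disp2 introns held 157 and 107 reads at CT16, against 172 to 307 elsewhere (-0.92 ± 0.18, adjusted p = 0.0927), and those of AK006051 held 127 and 171, against 199 to 369 (-0.79 ± 0.18, adjusted p = 0.132). Introns of Slc17a7, a glutamate transporter of forebrain neurons, had 0 reads in both CT16 libraries and 7 to 42 in the others. In all, 45 genes lay above the range in both tables, 9.13% of those above it in gene reads and 8.20% of those above it in intron reads. Another 30 lay below in both, 6.51% and 4.91% of the lists.

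**Figure D5:**
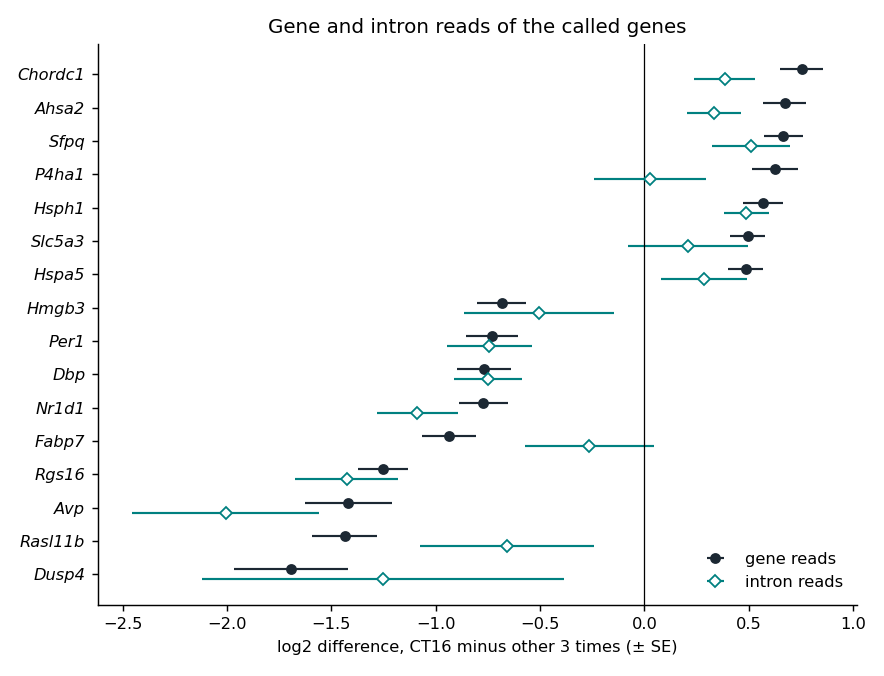
Log2 difference at CT16 (x axis, CT16 minus the mean of the other 3 times, bars ± SE) in gene reads (filled circles) and intron reads (open diamonds) of the 16 called genes with tested introns. Every diamond lies on the same side of 0 as its circle, nearest to 0 for P4ha1 (0.03 ± 0.27) and farthest for Avp (-2.01 ± 0.45). Avp introns held few reads, 7 and 14 at CT16 against 10 to 108 elsewhere. They were within the range of the other libraries and did not pass with edgeR (adjusted p = 0.132).

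The authors' deposited table gives a JTK rhythm test per gene, on the same 8 libraries. By the authors' deposited table, an adjusted p under 0.05 was given to 5 of the 9 genes that fell, to 0 of the 8 that rose and to 511 of all 15217 tested genes (3.36%), and the smallest q-value there was 0.823. The peak given in the authors' deposited table was 4 h for Rgs16 and Fabp7, 7 h for Nr1d1, Rasl11b, Avp, Per1, Dusp4 and Hmgb3, and 10 h for Dbp. For the genes that rose, the authors' deposited table gave 8.5 h for Chordc1, Ahsa2, Hsph1, Slc5a3 and Hspa5, and 19 h for Sfpq, Hspa1b and P4ha1. The mean CPM of each of these 8 genes was highest at CT16, and that of the 5 genes given 8.5 h was lowest at CT10.

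Markers of other cell types varied between libraries of the same time. The summed level of 12 oligodendrocyte markers was 8211 and 15983 CPM at CT16, against 5112 to 15325 CPM in the other 6 libraries, and 9 meningeal markers summed to 1115 and 1806 CPM at CT16, against 293 to 2225 CPM. Astrocyte markers, 10 in number, summed to 4176 and 4534 CPM at CT16, against 3878 to 4865 CPM. Of 16 marker lists, the thalamic one was the only list whose sums at CT16, 254 and 260 CPM, lay outside those of the other libraries, 311 to 475 CPM. It holds Rgs16, which alone had 80.3 and 81.9 CPM at CT16 against 137 to 304 CPM elsewhere. Of its 5 genes, Rgs16 was the 1 called and the 1 below the range, 2 had a positive difference, and the median log2 difference was -0.02. With an oligodendrocyte marker score as a term in the fit, 17 genes were called, 8 higher and 9 lower, but P4ha1 was no longer among them (adjusted p = 0.0514). The part of other cell types in the results was not tested.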

How the data were processed

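Polyadenylated SCN RNA of 8 libraries was analysed, and libraries of successive cycles, numbered in that order, formed a pair for every time. The members and gene lists were chosen with earlier results of these data known. STAR 2.3.0e and the mm9 build are named, per the submitters' processing notes; how reads were counted and depth made equal is not given in the sources used here. The authors' deposited tables hold whole-number read counts for 20741 genes and 176269 introns. JTK p-values, q-values and a peak lag in hours (used as a score) were also deposited, per the file headers. Whether gene counts contain intron reads is not given, and in 820 of 11897 genes found in both tables by symbol the intron reads outnumbered the gene reads.

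Counts of genes with at least 10 reads in at least 2 libraries were tested with edgeR 4.0.16 in R 4.3.3 (quasi-likelihood, TMM, Benjamini-Hochberg adjustment at 0.05, 4 residual degrees of freedom), 1 mean per time, on all 8 libraries. The biological coefficient of variation came to 0.137 (genes) and 0.193 (introns). Reads of 137080 introns with 1 symbol, overlaps resolved in favour of the shortest, were added up by gene and scaled with the gene library sizes. CPM values use effective library sizes, and SE is the log2 difference over the square root of F. The main gene fit was run on simulated counts with no rhythm among CT4, CT10 and CT22. That run therefore does not show how such rhythm affects the calls. Gene names matched 19628 IDs. Named genes were the 15 with the smallest p on each side among those outside the range with a mean of at least 5 CPM, every core clock gene, up to 3 of each list, 5 introns on each side with at least 10 reads on average, and every called gene. A gene chosen by this rule is not reported here. Alternatives were DESeq2 1.42.0, other scalings and filters, a pooled comparison, a cycle term, an oligodendrocyte score, another choice of overlapping introns (chosen after seeing the data) and leaving out each library. Exon, junction and antisense tables were not used here.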

Additional observations from a re-analysis of the deposited data

How the results depend on the processing

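With edgeR, the count of genes called at CT16 against the other 3 times was 0 when the other 6 libraries formed 1 group, 27 with DESeq2 and 76 with no filter beyond 1 read, and it ranged from 2 to 14 with 1 library left out. Against CT10 it was 101 with DESeq2, 190 with no filter and 2 to 30 with 1 library left out. Against CT22 it was 3 with DESeq2, 47 with no filter, 3 with the oligodendrocyte score and 0 to 6 with 1 library left out. Against CT4 it was 53 with DESeq2, 249 with no filter and 5 to 33 with 1 library left out. The introns called were 0 in the 2-group fit, 11 with DESeq2, 0 with the longest introns first, 34 with no filter and 0 to 4 with 1 library left out. The difference of effect between cycles gave 3 genes with no filter. With 1 library left out, genes outside the range numbered 570 to 2271 above and 593 to 2393 below, and introns 589 to 2074 above and 739 to 2278 below, since a single CT16 library or fewer others are easier to stand outside of; the introns below were 344 at a minimum of 50 reads. Of the named genes, 5 changed sign: without 1 of the CT16 libraries the log2 difference ranged from -0.0816 to 0.218 for Arntl, from -0.0098 to 1.02 for Plin4, from -0.0292 to 0.211 for Srsf5, from -0.158 to 0.0114 for Tef and from -0.337 to 0.0112 for Uqcrc1. Scaling by RLE or by column totals left 15 and 16 calls. Uncalled genes that DESeq2 called, namely Rora, Sdf2l1, Pdia4, Prex2, Stip1, Cirbp and Opalin, each passed in 2 of 8 settings that kept all libraries. These were DESeq2 and no filter beyond 1 read. For all other changes the cause was not tested. The labels number no replicates, so no pairing comes from them; with cycle as a term 14 genes were called, and Hspa5 (adjusted p = 0.0653), P4ha1 and Slc5a3 (0.0610 each) were lost. Only 2 pooled libraries stand for each time, so differences smaller than the spread between cycles were not detectable.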
